A study of Mus musculus with 6 samples.

Results

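Deubiquitinases are the proteases that remove ubiquitin from proteins, and the COP9 signalosome is a related complex that removes the ubiquitin-like protein NEDD8 from cullins. Genes of both kinds were taken by symbol from the array annotation: the USP, UCH, OTU and Josephin families, Cyld, Bap1 and Atxn3, and the Cops genes. The rule gave 75 genes on 85 probes, out of 16504 named genes and 19624 features in all (genes, and probes without a gene name). No filter on low values was applied, so all 75 were tested. Of these, 65 encode deubiquitinases or their close relatives and 8 are subunits of the COP9 signalosome. The other two carry a matching symbol only: Usp6nl encodes a GTPase activating protein for Rab proteins, and Usp46os2 is a transcript named for the strand opposite to Usp46.

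Ubiquitin chains mark proteins for the proteasome, for sorting at endosomes or for a change in signalling, and deubiquitinases edit or remove these marks. Most are cysteine proteases, whereas the catalytic subunit of the COP9 signalosome is a metalloprotease. Removal of NEDD8 by COP9 switches off cullin ubiquitin ligases and allows them to exchange their substrate receptors. Lens fibers stop making most proteins when they lose their nuclei and organelles, and the ubiquitin-proteasome system is among the pathways known to degrade proteins during this change.

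Mature fiber cells were compared with elongating fiber cells of the mouse lens on 6 two-colour arrays, all from mice of the GFP transgenic strain TgN(GFPU)5Nagy. On 3 arrays mature fibers were in channel 1 (lens249, lens487 and lens493), and on 3 elongating fibers were (lens250, lens488 and lens455). Cells were cut by laser capture from 5 µm sections of fixed lenses; the labels of lens249 and lens250 also give postnatal day 5, littermate lenses pooled, about 40 slices and a minimum of 200 cells. Each value is a log ratio of the 2 channels, with an unstated base and numerator, so no level of any gene is known. Where channel 1 held elongating fibers, the sign of the ratio was reversed, which gives the turned log ratios used below. A positive turned ratio stands for more RNA in mature fibers provided that the authors divided channel 1 by channel 2. It stands for less if they divided the other way, which would exchange the sides of all genes together; which of these holds is not known. As landmarks, the positive side is that of Dnase2b, the nuclease that degrades DNA in lens fibers, with a mean of 1.81 ± 0.30 (SD, n = 6). The negative side is that of the N-cadherin gene Cdh2, at -1.78 ± 0.54. These genes only name the sides and were not used to set the direction. In captured cells, fewer cells of a type and less RNA per cell cannot be told apart.

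The labels do not say which arrays share RNA. The arrays form 3 pairs of opposite orientation, by neighbouring titles for lens249/lens250 and lens487/lens488 and by what remains for lens455/lens493, and the members of each pair deviated together. After the fitted difference and dye effect were removed, their ratios correlated across all features with r = 0.19, 0.58 and 0.37, against -0.36 to -0.053 for the 6 other combinations of opposite orientation. Across the 75 genes the values were 0.32, 0.84 and 0.52, against -0.67 to 0.17. These values are across genes, which share arrays and are no replicates, so they carry no p-value, and the fit itself pushes the values of the other combinations down. If each pair is a dye swap of one pair of RNA extracts there are 3 replicates and not 6, and p-values over 6 arrays are too small; on the 3 pair averages no feature passed in limma, which covers every call below and those of the markers and related lists.

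Of the marker genes, 1 of 9 measured lens fiber genes passed on the positive side (Dnase2b) and 3 on the negative (Cdh2, Ezr and Ctsl). Of all features, 0.372% passed in limma on the positive side and 1.36% on the negative. Of 8 lens epithelium markers Col4a1 passed at -0.95 ± 0.38, and of 5 macrophage and leukocyte markers Laptm5 passed at 0.35 ± 0.21. At an unadjusted p under 0.05 in limma these lists had 1 and 2 genes. The second macrophage marker was Adgre1, at 0.31 ± 0.16. In the macrophage list 3 means were above 0 and 2 below. None of 6 blood and vessel markers or 5 retina and pigment cell markers passed in limma, with 0 and 1 at an unadjusted p under 0.05. The share of all features at that unadjusted p was 16.2%. The array medians lay between 0.064 and 0.24 for the macrophage list and between -0.18 and 0.11 for the epithelium list. For the retina and pigment list, where all 5 means were above 0, they lay between -0.131 and 0.404. For the blood and vessel list they lay between -0.086 and 0.195. Ratios do not show whether a marker is present, and the part of these cells in the values below was not tested.

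The question was whether the enzymes that remove ubiquitin or NEDD8 differ between the 2 stages of fiber maturation. In limma with a dye term, adjusted by Benjamini-Hochberg over all features, 2 of the 75 genes passed an adjusted p of 0.05, or 2.67%, against 1.73% of all features. They lay on opposite sides: Usp9x on the negative side, where 1.36% of all features passed, and Usp14 on the positive, where 0.372% did. At an unadjusted p under 0.05 there were 13 genes, or 17.3%, against 16.2% of all features: 6 on the positive side, where the share of all features was 7.28%, and 7 on the negative, where it was 8.94%. One sign on all 6 arrays was found for 9 genes, or 12%, against 9.25% of all features: 4 above 0, against a share of 3.52%, and 5 below 0, against 5.73%. These shares are near those of all features and are not a result about the genes as a group. On the 3 pair averages 0 of the 75 genes and 0 features passed in limma. There, 10 genes and 2395 features had an unadjusted p under 0.05. With the pairs as a random block, an alternative chosen after seeing the data, the same 2 genes passed (limma adjusted p = 0.0285 for Usp9x and 0.0498 for Usp14). That fit used a consensus correlation of 0.129 for all features, so it allows little for genes whose paired arrays deviate together more strongly.

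The median of the 75 means was 0.028, against 0.003 for all features, with 44 genes above 0 and 31 below. Their array medians lay between -0.068 and 0.083. Of the 75, 59 had a mean within 0.2 of 0 and 8 a mean beyond 0.4. The median size of the means, without sign, was 0.11, against 0.089 for all features. The 95% interval of the difference, from the 6-array fit, lay wholly within 0.25 of 0 for 24 genes and within 0.5 for 55. These intervals take the arrays as separate samples, and the counts of means and intervals were not made for all features.

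**Figure D1:**
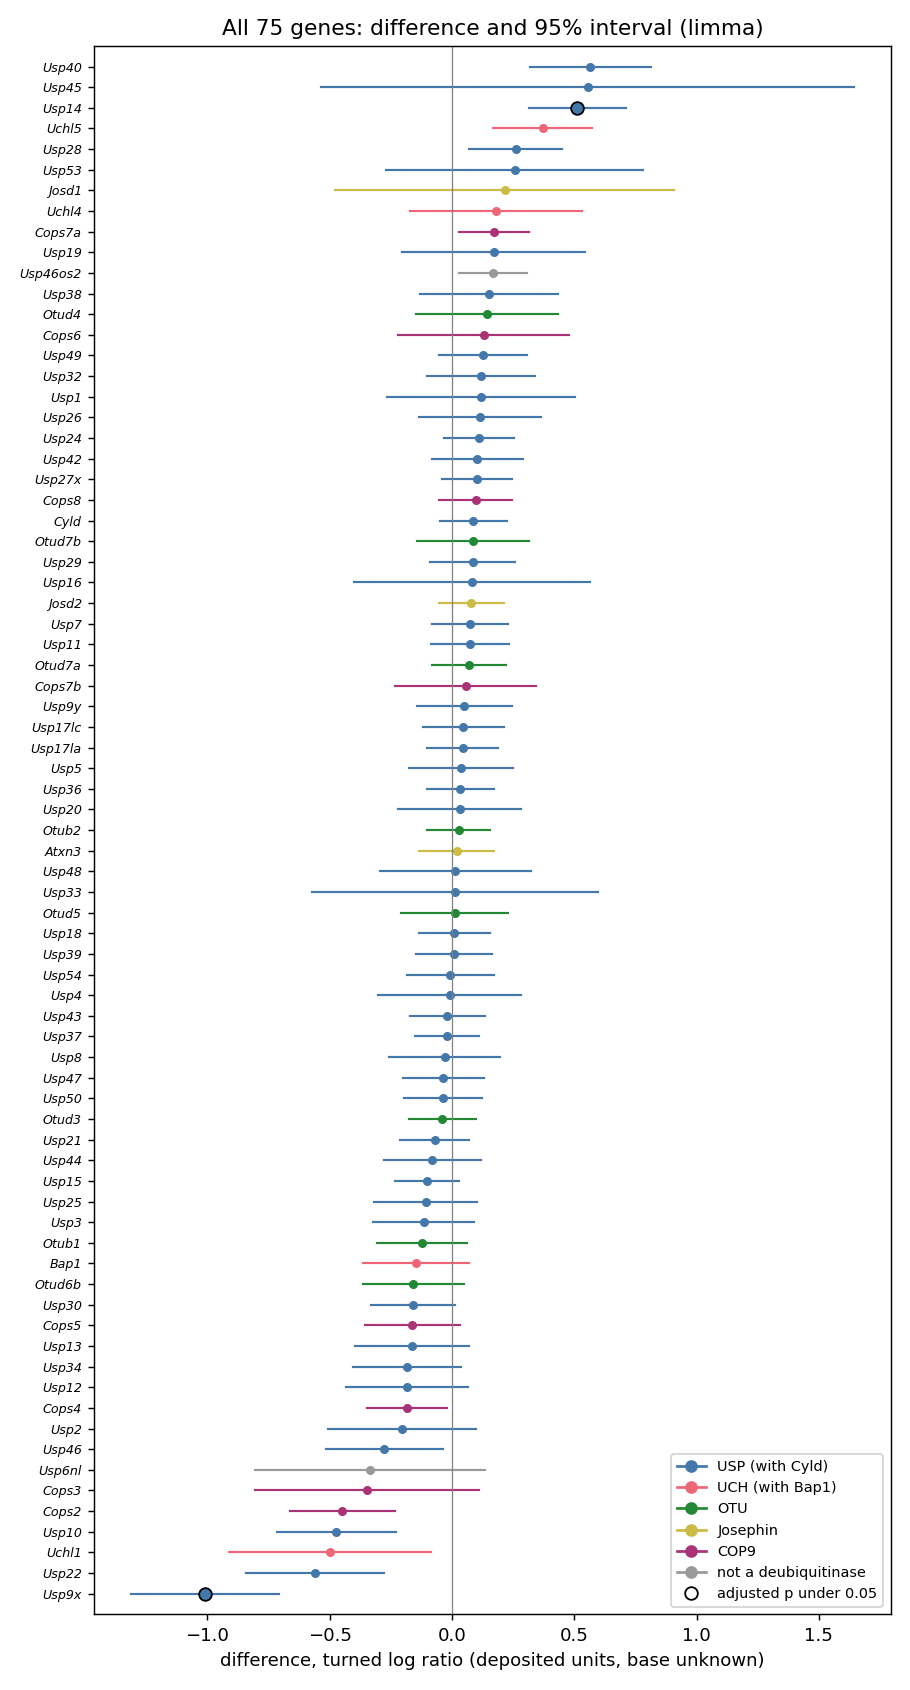
Difference between the fiber populations for all 75 genes, in deposited log units (horizontal axis), with the 95% interval of the limma fit on 6 arrays, coloured by family. Usp9x, at -1.01, and Usp14, at 0.51, are outlined as the 2 genes past the adjusted threshold, and most intervals cross 0.

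Usp14 and Uchl5, the 2 genes of the set assigned to the proteasome, had means on the positive side, and only Usp14 passed. The proteasome's metalloprotease gene Psmd14, outside the symbol rule, had a mean on the negative side. Usp14, a USP enzyme that trims ubiquitin chains at the proteasome's regulatory particle, had turned log ratios of 0.12, 0.70 and 0.36 on the arrays with mature fibers in channel 1, and 0.66, 0.61 and 0.62 on those with elongating fibers in channel 1. All 6 were above 0, and lens249 was the lowest. The mean was 0.51 ± 0.23 (SD, n = 6; limma adjusted p = 0.037, 95% interval 0.32 to 0.71), a 1.43-fold difference under base 2 and a 3.26-fold difference under base 10. On the 3 pair averages Usp14 did not pass (limma adjusted p = 0.25, unadjusted p = 0.0025), nor did it without any 1 of the 6 arrays (limma adjusted p = 0.0502 to 0.14).

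Uchl5, the UCH enzyme that binds the proteasome and also the INO80 chromatin remodeller, had 0.17, 0.52 and 0.11 with mature fibers in channel 1, and 0.24, 0.64 and 0.54 with elongating fibers in channel 1. It was above 0 on all 6 arrays and highest on lens488. Its mean of 0.37 ± 0.22 did not pass (limma adjusted p = 0.094). Psmd14, the metalloprotease of the regulatory particle and outside the symbol rule, lay at -0.26 ± 0.55 with both signs among the arrays (limma adjusted p = 0.55).

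Among enzymes of membrane traffic and signalling, Usp9x had the largest mean of the 75 genes in size. Usp9x is an X-linked deubiquitinase of adhesion, polarity and TGF beta signalling proteins. Its turned log ratios were -1.32, -0.77 and -1.67 on the arrays with mature fibers in channel 1, and -1.05, -0.76 and -0.49 on those with elongating fibers in channel 1. All 6 were below 0, with lens493 farthest from 0 and lens455 nearest. The mean was -1.01 ± 0.43 (limma adjusted p = 0.021, 95% interval -1.31 to -0.71), a 2.02-fold difference under base 2 and a 10.3-fold difference under base 10. On the 3 pair averages, which were -1.19, -0.77 and -1.08, Usp9x did not pass (limma adjusted p = 0.25, unadjusted p = 0.00056). Without 1 of the 6 arrays it passed only when lens487 was the one left out (limma adjusted p = 0.041 to 0.096 over the 6 fits). Its Y-linked relative Usp9y lay at 0.051 ± 0.18.

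Usp46, which works with the scaffold protein Wdr48, was below 0 on all 6 arrays, from -0.72 on lens493 to -0.01 on lens249, with a mean of -0.28 ± 0.26 (limma adjusted p = 0.24). Wdr48 itself was at 0.18 ± 0.35. Usp46os2 was at 0.17 ± 0.20 (limma adjusted p = 0.23), and whether the probes tell the 2 strands apart is not known. The other 8 genes assigned to this role had means between -0.20 (Usp2) and 0.051. Among them were the endosomal enzyme Usp8 and the paralogs Usp4 and Usp15. In limma 0 of these 8 passed, adjusted or not, against 1.73% and 16.2% of all features. With so few genes, this is not a result about the role. Usp40, which has no assigned role here, lay on the side of Usp14: it had 0.01, 0.78 and 0.40 with mature fibers in channel 1, and 0.58, 0.80 and 0.82 with elongating fibers in channel 1. All 6 were above 0, lens249 only just. Its mean of 0.57 ± 0.32 missed the threshold (limma adjusted p = 0.054).

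**Figure D2:**
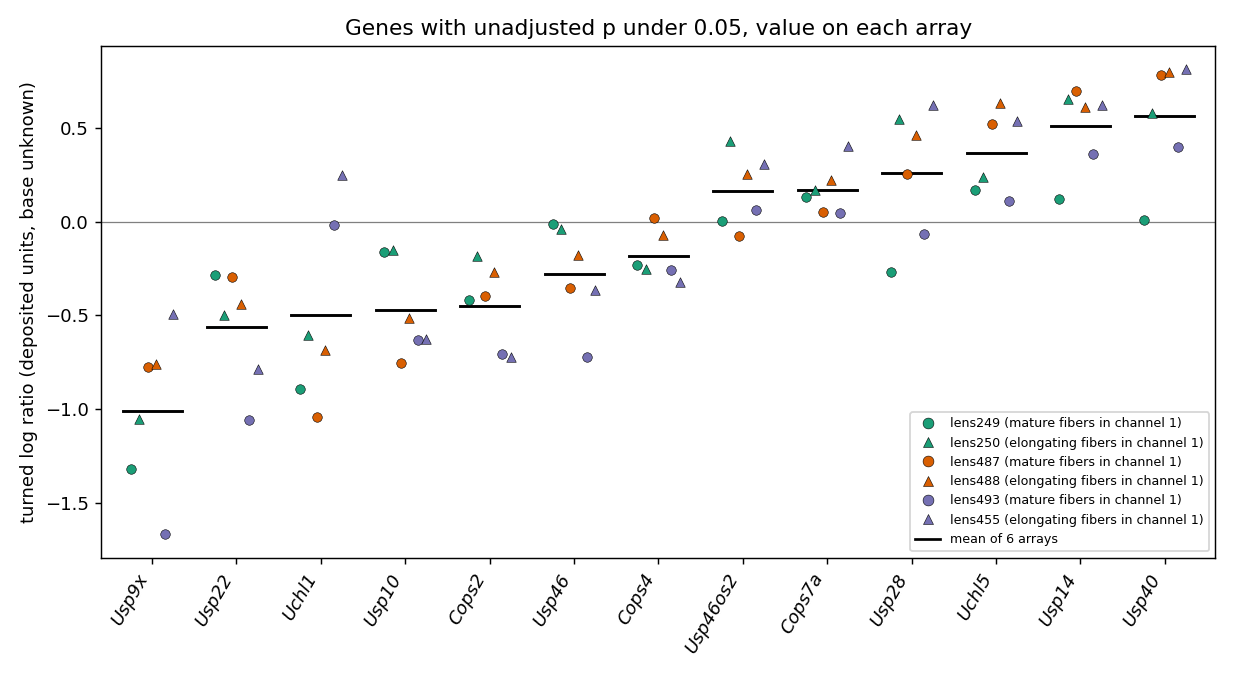
Turned log ratios (vertical axis, deposited units) of the 13 genes with an unadjusted p under 0.05, one point per array, with circles for mature and triangles for elongating fibers in channel 1, one colour per pair of arrays and a bar at the mean. Usp9x, Usp22, Usp10, Cops2 and Usp46 lie below 0 on all 6 arrays, and Usp14, Usp40, Uchl5 and Cops7a above 0 on all 6.

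Enzymes that act on chromatin had means between -0.56 and 0.13. In limma 0 of 9 passed the adjusted threshold, against 1.73% of all features. Only Usp22 passed unadjusted, as did 16.2% of all features, so these counts are not a result about chromatin enzymes. Usp22, the deubiquitinase of the SAGA coactivator complex, had -0.29, -0.30 and -1.06 with mature fibers in channel 1, and -0.50, -0.44 and -0.78 with elongating fibers in channel 1. All 6 arrays were below 0, and the 2 largest values in size came from lens493 and lens455. Its mean was -0.56 ± 0.31 (limma adjusted p = 0.076). Atxn7, the subunit that anchors the deubiquitinase module in SAGA, was at -0.33 ± 0.39 (limma adjusted p = 0.33), and Bap1, the tumour suppressor that removes ubiquitin from histone H2A, at -0.15 ± 0.22. Usp27x, a close relative of Usp22, had 0.10 ± 0.13.

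Of the 7 genes linked to DNA damage and stress, Usp10 and Usp28 had an unadjusted p under 0.05 in limma, against 16.2% of all features. The adjusted threshold was passed by 0 of the 7, against 1.73% of all features. With so few genes, these counts are not a result about this role. Usp10, the partner of the stress granule protein G3bp1, had -0.16, -0.76 and -0.63 with mature fibers in channel 1, and -0.15, -0.51 and -0.62 with elongating fibers in channel 1. The mean of Usp10 was -0.47 ± 0.26 (limma adjusted p = 0.081), with lens249 and lens250 nearest to 0, and G3bp1 was at 0.12 ± 0.23. Usp28, which stabilises Myc, had -0.27, 0.26 and -0.065 with mature fibers in channel 1, but 0.55, 0.46 and 0.63 with elongating fibers in channel 1. These sets of 3 values do not overlap, and the dye effect of Usp28 was -0.29 (limma unadjusted p = 0.0094, adjusted p = 0.27). Its mean of 0.26 ± 0.36 (limma adjusted p = 0.18) combines -0.027 in the first orientation with 0.55 in the second.

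Among enzymes that recycle ubiquitin, Uchl1, an abundant hydrolase of neurons, had -0.89, -1.05 and -0.019 with mature fibers in channel 1, and -0.61, -0.68 and 0.25 with elongating fibers in channel 1. The first 2 pairs were below 0, and lens493 and lens455 lay near or above 0. Its mean of -0.50 ± 0.51 did not pass (limma adjusted p = 0.23). Usp5, which takes apart free ubiquitin chains, was at 0.038 ± 0.21, and its relative Usp13 at -0.16 ± 0.24. All 8 OTU genes had means between -0.16 and 0.14. The 3 Josephin genes, including the ataxin gene Atxn3 at 0.019 ± 0.24, lay between 0.019 and 0.21. In limma 0 of these 11 passed, adjusted or not, against 1.73% and 16.2% of all features. With so few genes, this is not a result about these families. Cyld, which removes linear and lysine-63 chains and restrains NF-kB signalling, had 0.088 ± 0.066 over its 3 probes.

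Subunits of the COP9 signalosome lay on both sides of 0. Of the 8 measured by this rule 4 had means below 0 and 4 above, with a median of -0.054. In limma 0 passed the adjusted threshold, against 1.73% of all features. Cops2, a scaffold subunit, had -0.42, -0.40 and -0.71 with mature fibers in channel 1, and -0.18, -0.27 and -0.72 with elongating fibers in channel 1. It was below 0 on all 6 arrays, and its mean of -0.45 ± 0.22 was the farthest from 0 of the 8 (limma adjusted p = 0.069). Cops4 had -0.23, 0.023 and -0.26 against -0.25, -0.071 and -0.32 in the same order of orientations, below 0 on 5 of 6 arrays (mean -0.18 ± 0.13, limma adjusted p = 0.25).

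Cops7a lay on the other side, with 0.13, 0.051 and 0.050 with mature fibers in channel 1, and 0.17, 0.23 and 0.40 with elongating fibers in channel 1. It was above 0 on all 6 arrays at a small mean of 0.17 ± 0.13 (limma adjusted p = 0.23). These 3 of 8 subunits (37.5%, against 16.2% of all features) had an unadjusted p under 0.05 in limma. Cops5, the catalytic metalloprotease, did not: its mean was -0.16 ± 0.19 with a 95% interval of -0.36 to 0.032. Cops3 was at -0.35 ± 0.54, set by lens493 (-1.17) and lens455 (-0.78), while lens487 and lens488 were above 0. Cops6 was at 0.13 ± 0.42, Cops8 at 0.10 ± 0.27 and Cops7b at 0.056 ± 0.41. Cops8 was below 0 on all 3 arrays with mature fibers in channel 1 and above 0 on the other 3 (dye effect -0.23, limma unadjusted p = 0.0094, adjusted p = 0.27).

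**Figure D3:**
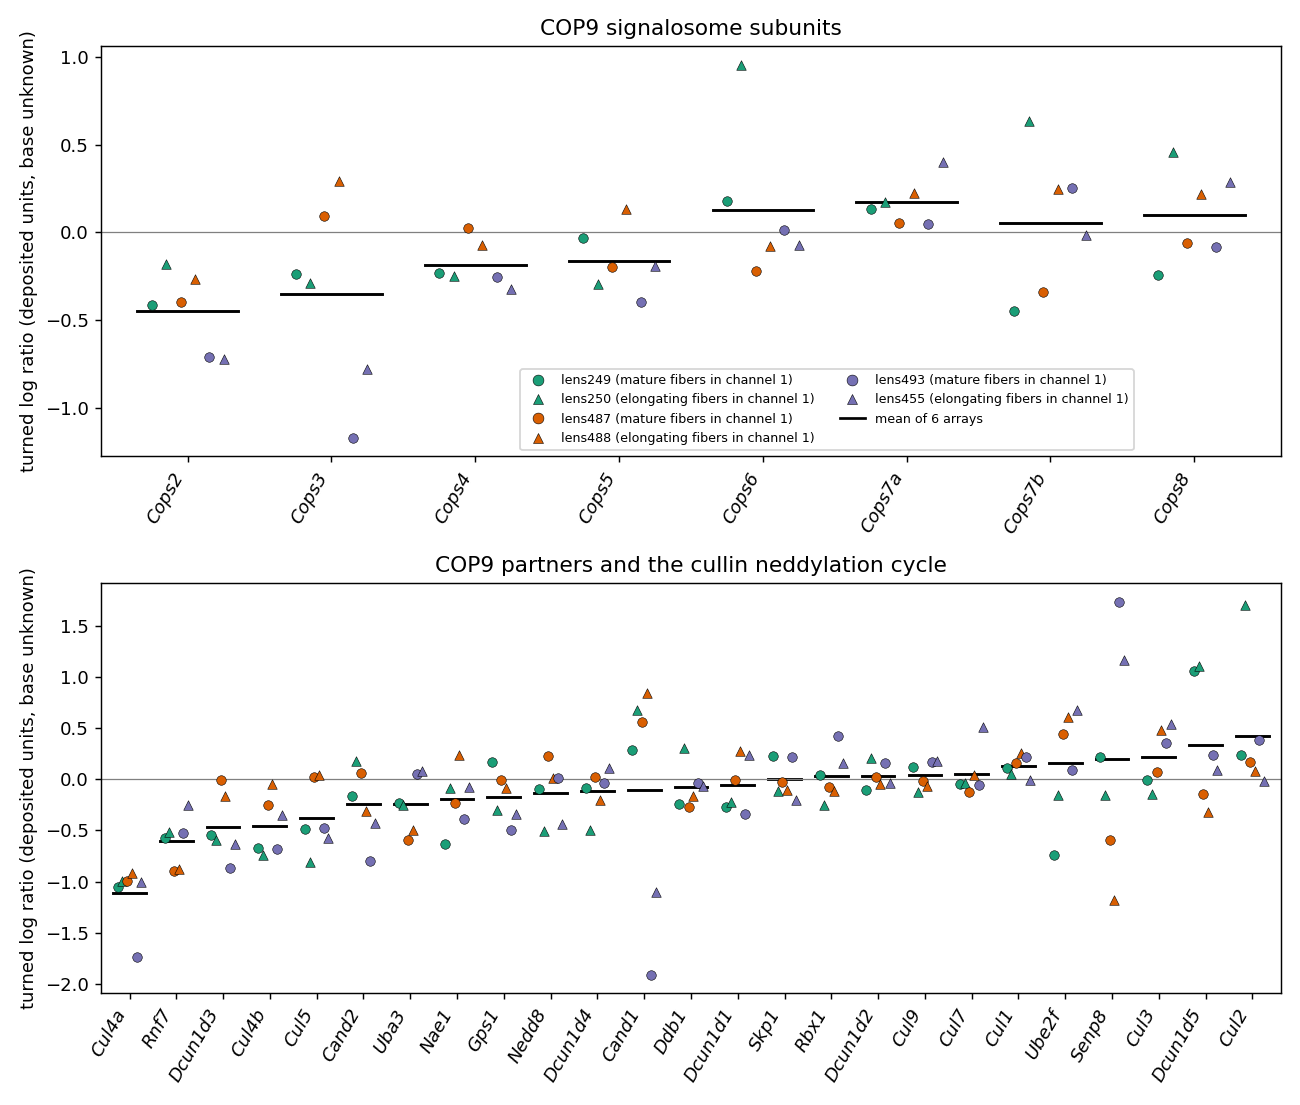
Turned log ratios (vertical axes, deposited units) of the 8 COP9 subunits (upper panel) and of the 25 measured partners and genes of the cullin neddylation cycle (lower panel), one point per array and a bar at the mean. Subunits lie on both sides of 0, from Cops2 at -0.45 to Cops7a at 0.17, and Cul4a and Rnf7 lie below 0 on all 6 arrays.

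Promoters of 3 COP9 genes are shown because Cops2 and Cops4 lay on one side and Cops7a on the other; the genes and motifs were chosen after the values were seen, and promoters of other genes were looked at first. The windows are the 250 bases before the RefSeq start (assembly GRCm38.p6), 5′ to 3′ on the gene's strand, with capitals marking the ETS core CCGGAA on either strand. They lie at chr2:125859083-125859332 (minus strand) for Cops2, chr5:100518059-100518308 (plus strand) for Cops4 and chr6:124965513-124965762 (minus strand) for the first of the 2 listed Cops7a starts.
Cops2: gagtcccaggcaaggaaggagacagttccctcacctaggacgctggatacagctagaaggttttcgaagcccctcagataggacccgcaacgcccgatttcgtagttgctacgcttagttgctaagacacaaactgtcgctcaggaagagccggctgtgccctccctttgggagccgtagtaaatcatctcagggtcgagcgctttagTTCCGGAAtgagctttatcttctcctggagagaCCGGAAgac
Cops4: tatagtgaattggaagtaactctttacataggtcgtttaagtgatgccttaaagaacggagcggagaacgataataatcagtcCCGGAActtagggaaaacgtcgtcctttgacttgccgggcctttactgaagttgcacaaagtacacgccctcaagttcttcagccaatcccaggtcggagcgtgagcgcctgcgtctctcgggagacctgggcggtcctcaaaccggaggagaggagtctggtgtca
Cops7a: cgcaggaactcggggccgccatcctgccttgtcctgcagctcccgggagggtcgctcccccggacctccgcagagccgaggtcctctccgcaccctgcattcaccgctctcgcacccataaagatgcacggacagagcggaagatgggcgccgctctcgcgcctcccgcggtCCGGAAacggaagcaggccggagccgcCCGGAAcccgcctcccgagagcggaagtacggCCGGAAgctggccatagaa
All 3 windows shown hold the ETS core, on either side of the comparison; the window of the second Cops7a start, not shown, holds a GC box and no ETS core. It was found in 5 of the 7 COP9 genes with a listed promoter (Cops2, Cops3, Cops4, Cops7a and Cops8), in 19 of 59 matched genes of the whole set (32.2%) and in 13.6% of the 27025 genes of the promoter table. The GC box GGGCGG was in 61.0% of the matched genes and 35.4% of all, the CCAAT box in 28.8% and 37.5%, and the NRF1 motif in 0 of 59 and 0.88%. Both strands were searched, and the ETS core can overlap itself as TTCCGGAA. The windows of the set had a median GC content of 62.8%, against 52.4% of all windows, and the table holds all kinds of genes, so the shares are not matched for base composition. A match is a run of letters, not a shown binding site.

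Of the partners of COP9 and the genes that attach NEDD8 to cullins, 25 were measured, 2 passed in limma on the negative side, where 1.36% of all features did, and 0 on the positive, where 0.372% did. At an unadjusted p under 0.05 there were 6 on the negative side and 0 on the positive, or 24% of the list, against 16.2% of all features. The median of their means was -0.080, against 0.003 for all features. Rnf7, the RING subunit that pairs with Cul5, had -0.58, -0.90 and -0.53 with mature fibers in channel 1, and -0.52, -0.87 and -0.26 with elongating fibers in channel 1, all below 0 (mean -0.61 ± 0.24, limma adjusted p = 0.036). The cullin Cul4a also passed, at -1.12 ± 0.31. Its paralog Cul4b was below 0 on all 6 arrays without passing (-0.46 ± 0.28, limma adjusted p = 0.10), as was Dcun1d3, a cullin neddylation cofactor (-0.47 ± 0.32, limma adjusted p = 0.13). Gps1, which encodes the COP9 subunit outside the symbol rule, was at -0.18 ± 0.24, and Nedd8 at -0.13 ± 0.28. Cul1 and Cul3 lay above 0, at 0.13 ± 0.10 and 0.21 ± 0.28, and did not pass.

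Of 23 other measured genes with a deubiquitinase or related protease domain, Stambp passed on the negative side and 0 on the positive. Of all features, 1.36% passed on the negative side in limma and 0.372% on the positive. At an unadjusted p under 0.05 in limma the share of the list was 17.4%, against 16.2% of all features. Stambp, the endosomal metalloprotease AMSH, had -1.33, -0.80 and -0.65 with mature fibers in channel 1, and -1.13, -0.74 and -0.26 with elongating fibers in channel 1, all below 0 (mean -0.82 ± 0.37, limma adjusted p = 0.038). Mindy2 had the next lowest p in that list (-0.48 ± 0.40, limma adjusted p = 0.14). Of 23 measured binding partners of deubiquitinases 0 passed in limma, and 2 had an unadjusted p under 0.05 (8.70%, against 16.2% of all features). These were the segregase Vcp, at -0.28 ± 0.29, and Fbxw7, the ubiquitin ligase subunit opposed by Usp28, at 0.48 ± 0.57, each with a limma adjusted p of at least 0.28. Of the list of ubiquitin precursors only Fau, a fusion of a ubiquitin-like protein with a ribosomal protein, was measured, at 0.081 ± 0.26.

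The spread between arrays was wide for some genes, and the genes named in this paragraph were chosen after their values were seen. The median SD of the 75 was 0.22, against 0.23 for all features. An SD over 0.5 was found in 9 of the 75. That number was not counted over all features, so it is not a result about these genes. Usp45 had the largest, 1.42, with 1.76 on lens487 and 2.65 on lens488, against -1.25 on lens493. Usp33, a relative of Usp20, was at 0.74 and 0.55 on lens249 and lens250, but at -0.87 and -0.76 on lens487 and lens488. Usp53 had pair averages of 0.34, -0.47 and 0.91, with a within-pair SD of 0.077. In each of these 3 genes the pair averages had both signs. Over the 75 genes, the SD between pair averages exceeded the SD within pairs for 32. The SD within pairs is that of single arrays and includes the dye effect, whereas the other is that of averages. The 2 are not on one scale, and the count was not made for all features. It therefore does not show how well the pairs agreed.

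**Figure D4:**
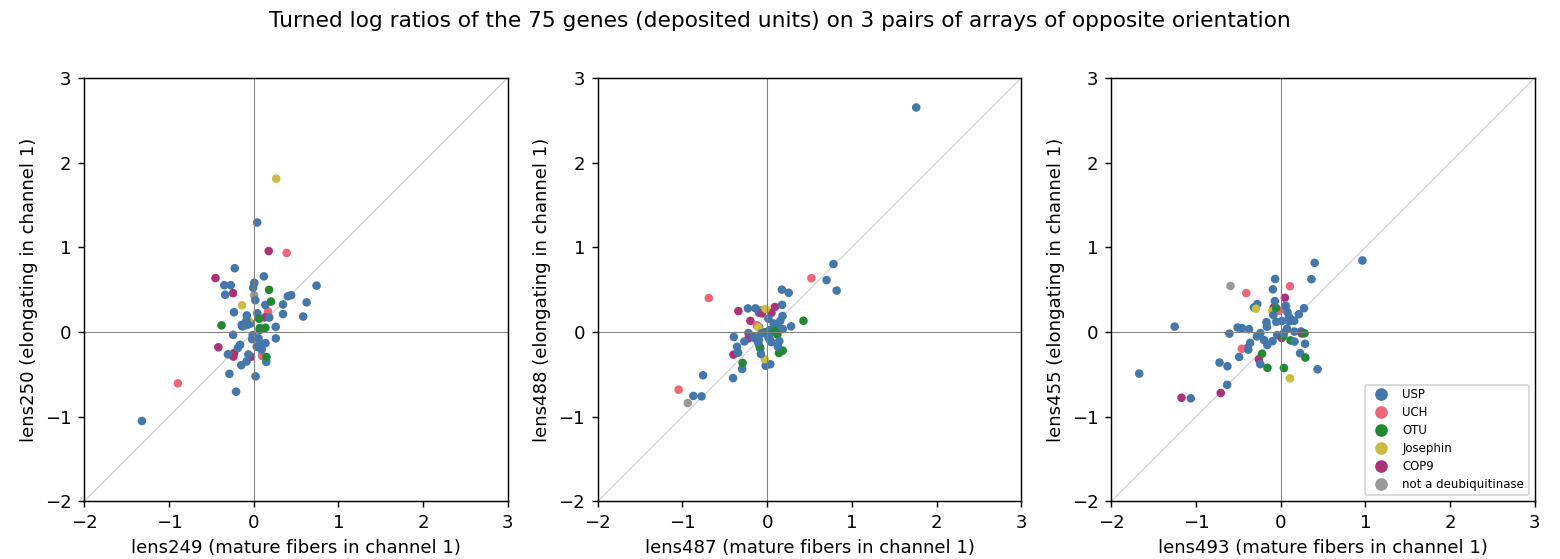
Turned log ratio of each of the 75 genes on one array of a pair (horizontal axis) against the other (vertical axis), in deposited units, with the diagonal in grey and colours by family. Across genes r was 0.40 for lens249 and lens250, 0.80 for lens487 and lens488 and 0.47 for lens493 and lens455.

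The dye effect, which is the part of the ratio that follows the channel and not the cells, had an unadjusted p under 0.05 in 9 of the 75 genes, against 12.6% of all features, and 0 passed the adjusted threshold in limma (smallest adjusted p = 0.27). In 34 genes the means of the 2 orientations had opposite signs. This was not counted over all features, and 59 of the 75 means lay within 0.2 of 0. It is therefore not a result about these genes. Fitted alone in limma, 0 of the 18 probes of the 8 genes with several probes passed, and 2 had an unadjusted p under 0.05. Of all 20906 probes fitted so, 347 passed and 3368 had an unadjusted p under 0.05. In 3 of the 8 genes the probes had means on both sides of 0. The larger of these disagreements was in Usp32, whose probes had means of 0.38 ± 0.37 and -0.14 ± 0.44, so its averaged value of 0.12 rests on unlike probes.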

How the data were processed

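The authors deposited one log ratio per probe and array (22575 probes; 0 values missing), already processed by steps that no label or header describes. Neither base nor numerator is stated; the deposited array medians lay between -0.006 and 0.025. No spot intensities were used, so the error of a mean comes from the number of arrays and the spread between them. Unturned ratios of arrays of opposite orientation correlated across features with Pearson's r between -0.61 and -0.038 (9 of 9 below 0), and Spearman's rho between -0.36 and 0.057 (6 of 9 below 0); the turn assumes that all arrays run in one channel order.

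Genes came from the platform annotation (18218 probes with 1 symbol, 16 with several and 4341 unlisted); 74 of the 75 genes matched RefSeq by gene ID with the same symbol. Repeated identical rows were counted once, and 1032 unlisted probes in 10 sets with 49 or more identical rows each were dropped; arrays were median-centred, and probes of a gene averaged. limma 3.58.1 (R 4.3.3) was fitted to all 19624 features with terms for the fiber population and dye, two-sided, and tested on simulated data. Genes named are those with an unadjusted p under 0.05 or one sign on all arrays, all COP9 subunits, and in each related list those that passed or else the 2 with the lowest p; other genes the text names were chosen after their values were seen. Members and lists were chosen with earlier results of these data known. Nothing states that arrays came from separate animals, so p-values measure the spread between arrays. Figures used matplotlib 3.10.9.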

Additional observations from a re-analysis of the deposited data

Results flagged for a closer look

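In 5 of the 75 genes 1 of the 6 turned ratios stood far from the other 5. For independent normal values, chance flags about 1 gene in 20, or 3.75 of 75. The turned ratios hold a dye effect and arrays that deviate in pairs, and flags were not counted over all features. On lens250, Josd1 had 1.81 where the others lay between -0.548 and 0.267, Usp16 had 1.29 against -0.381 to 0.042, Cops6 had 0.955 against -0.219 to 0.178, and Usp4 had 0.752 against -0.269 to -0.095. On lens455, Usp3 had 0.329 against -0.303 to -0.068. Thus 4 of the 5 values were on 1 array, lens250, and none of these genes passed the test. In the limma fit with array weights, lens250 had the lowest weight of the 6 arrays (0.58) and lens455 the next (0.62). Whether this bears on the flags was not tested.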

How the results depend on the processing

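Against 2 genes in the fit described, leaving out 1 array gave 0 to 1 (Usp9x, without lens487; limma adjusted p of Usp9x 0.041 to 0.096 and of Usp14 0.0502 to 0.14 over these fits). Averaging arrays in pairs gave 0, and either orientation alone gave 0. With no dye term 5 passed (Cops2, Usp14, Usp22, Usp40 and Usp9x), with array weights 6 (Cops2, Uchl5, Usp10, Usp14, Usp40 and Usp9x), and with repeated identical rows kept 1 (Usp9x). Quantile normalization gave Usp9x and Usp22 (limma adjusted p of Usp22 0.026, of Usp14 0.053), and scaling of the arrays gave Usp9x and Cops2 (of Cops2 0.048, of Usp14 0.063). Usp9x passed in 10 of 18 alternatives and Usp14 in 6, both with the same sign in all 18. With mature fibers in channel 1 alone Usp28 was at -0.027 and Usp46os2 at -0.0017, each reversed. The median of the 75 genes, 0.028, was between -0.0065 (without lens250) and 0.039 over its alternatives. The labels give no replicate numbers, so the pairs rest on array titles and, for lens455 and lens493, on what remains. That the arrays of a pair deviated together does not show that they share RNA. With these pairs as a random block, chosen after seeing the data, the same 2 genes passed. That fit used a consensus correlation of 0.129 for all features. Causes were not tested, and with no intensities a filter on dim probes could not be tried.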
